A study of Homo sapiens with 8 samples.

Results

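The subunits of the oxidative phosphorylation system were followed by the genome that encodes them. The set holds the 13 protein-coding genes of the mitochondrial genome and 80 nuclear genes for subunits of complexes I to V, chosen by gene symbol among the protein-coding genes of the table and not by any measured value. These 93 genes were 93 of 19951 protein-coding genes and of 58735 gene identifiers in all. By complex, the mitochondrial and nuclear genes numbered 7 and 37 for complex I, 0 and 4 for complex II, 1 and 9 for complex III, 3 and 11 for complex IV, and 2 and 19 for complex V. Complexes were assigned by gene symbol alone, so every NDUF gene, NDUFA4 included, was counted in complex I.

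Poly(A)-selected RNA was sequenced from SRA01/04 cells, an established line of human lens epithelial cells, in 8 libraries. The 4 shControl libraries carried a control short hairpin RNA in cells whose genotype is labelled WT, and the 4 shSmurf1 libraries carried a hairpin against SMURF1, a ubiquitin ligase of TGF-β signalling (genotype label Smurf1 knockdown). Recombinant human TGF-β2 (20 ng/ml, 48 h) was given to both groups, so every difference given here is between hairpins in TGF-β2-treated cells. The libraries are labelled as biological replicates. How many hairpins were used, whether the lines are pools or clones, and whether the 4 cultures of a group were grown and treated apart are not stated in the labels, so p-values measure only how these libraries spread, which may be technical.

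Oxidative phosphorylation couples the transfer of electrons along complexes I to IV of the inner mitochondrial membrane to ATP synthesis by complex V. Complexes I, III, IV and V are mosaics of subunits from both genomes, whereas complex II is wholly nuclear-encoded. The mitochondrial genes are read from both strands as long polycistronic transcripts that are cut at tRNAs, while each nuclear gene has a promoter of its own and its product is imported. The 13 mitochondrial genes thus share their transcripts and are not independent of each other.

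SMURF1, the targeted gene, was measured first. It stood at 85.6, 93.2, 88.4 and 87.9 CPM (normalised read counts, scaled to library sizes by TMM) in shControl replicates 1 to 4, and at 51.3, 50.3, 51.3 and 51.1 CPM in shSmurf1 replicates 1 to 4. It fell by 0.80 on the log2 scale (SE 0.055; the adjusted p was 2.86e-09 by the quasi-likelihood F test of edgeR, Benjamini-Hochberg), with no overlap between the groups. Library totals ran from 14688651 to 17030394 counts. Of 15647 genes tested, 3527 were called at an adjusted p under 0.05 (22.5%), 1611 higher (10.3%) and 1916 lower (12.2%) in shSmurf1, and the median log2 fold change was 0.01. The library of shSmurf1 replicate 3 stood apart. Its slope of log2 CPM on GC content was -0.107 per 10% GC against 0.071 to 0.110 in the other shSmurf1 libraries and -0.058 to -0.026 in shControl, and its mean correlation with its own group was 0.988 against 0.992 or more in the other libraries. The mitochondrial share and the number of members called in each genome are therefore also given without it. The ratios between the genomes and the counts of other gene lists are given with all libraries only. Of the 16 lens markers listed, 4 passed the filter on low counts, PAX6 at 33.3 CPM, SIX3 at 16.2 CPM, BFSP1 and CRYGS, while the lens crystallin CRYAA and the fibre proteins MIP and LIM2 were at or near 0. SIX3 fell by 0.37 on the log2 scale (SE 0.099), a call lost without shControl replicate 4, and the other 3 were not called. Of 13 markers of blood, vessel, fibroblast, epithelial and pigment cells, 3 passed the filter, none above 4.6 CPM on average in shControl, and 0 were called by edgeR, DESeq2 or limma-voom. At an unadjusted p under 0.05 edgeR gave 1 of the 3, VWF, which stood at 1.76 ± 0.578 CPM in shControl and 0.944 ± 0.469 CPM in shSmurf1 (SD, n = 4 each), without overlap (log2 fold change -0.90, adjusted p = 0.0775). MLANA stood at -0.61 and PDGFRA at -0.01 on the log2 scale. Their part in the results was not tested.

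Transcripts of the mitochondrial genome took a larger share of the counts in shSmurf1, while the share of the nuclear subunits overlapped between the groups. The 13 mitochondrial genes held 3.63%, 3.57%, 3.38% and 3.56% of all counts in shControl replicates 1 to 4, and 4.30%, 4.27%, 5.24% and 4.33% in shSmurf1 replicates 1 to 4. Every shSmurf1 library lay above every shControl library, and the highest value was that of shSmurf1 replicate 3. The group means were 3.54% ± 0.111 and 4.53% ± 0.471 (SD, n = 4 each), so the shSmurf1 share was 128.3% of the control share, and it was 4.30% ± 0.03 (SD, n = 3) without replicate 3. The 80 nuclear genes held 0.591%, 0.552%, 0.541% and 0.567% in shControl, and 0.589%, 0.554%, 0.590% and 0.570% in shSmurf1. These ranges overlapped almost wholly, with means of 0.563% ± 0.0214 and 0.576% ± 0.017 (SD, n = 4 each). In bulk RNA, more of these transcripts per cell and a different mix of cells cannot be told apart.

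**Figure D1:**
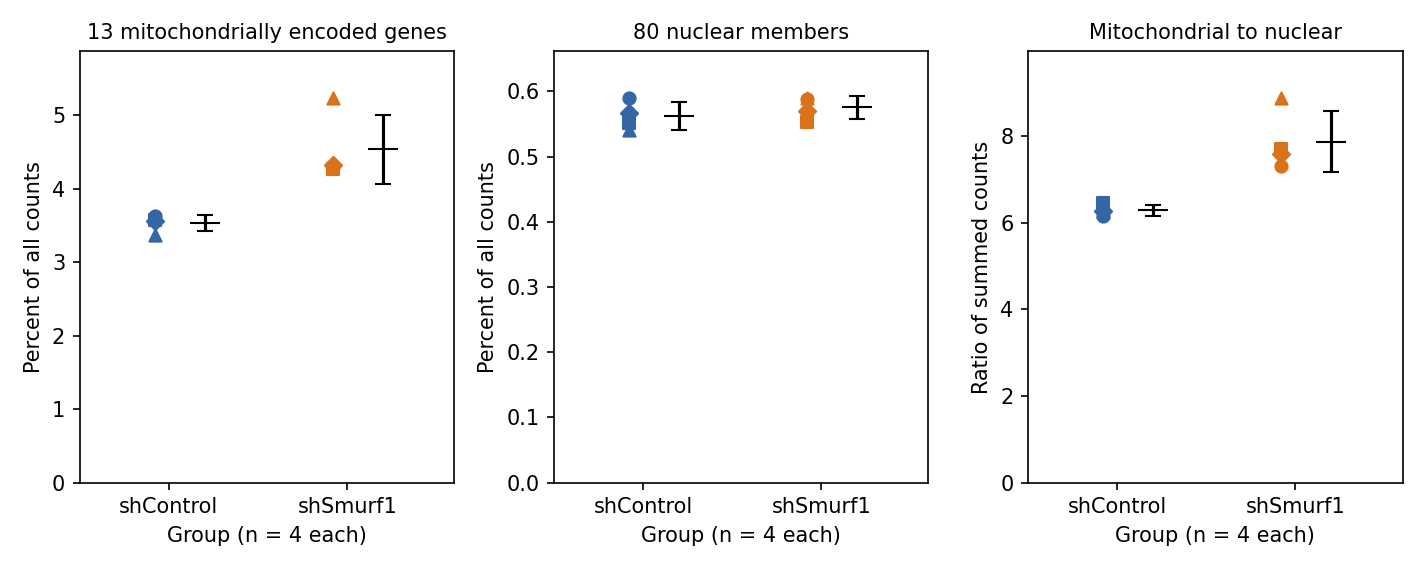
Share of all counts (percent, y axis from 0) held by the 13 mitochondrial genes and by the 80 nuclear members, and the ratio of the 2, for each of the 4 shControl and 4 shSmurf1 libraries, with black bars for the mean and SD and triangles for replicate 3. The mitochondrial share was 3.38% to 3.63% in shControl libraries and 4.27% to 5.24% in shSmurf1 libraries, while the nuclear shares overlapped.

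Counts of the mitochondrial genes per count of the nuclear members were 6.15, 6.47, 6.24 and 6.28 in shControl and 7.31, 7.71, 8.89 and 7.60 in shSmurf1. The groups did not overlap, with means of 6.29 ± 0.132 and 7.87 ± 0.695 (SD, n = 4 each), a ratio of 125.3%. Within complex I the ratio was 6.37 ± 0.18 in shControl and 8.29 ± 0.833 in shSmurf1. For complex III it was 2.97 ± 0.151 and 4.06 ± 0.451. The 2 groups were also apart for complex IV, at 22.9 ± 0.905 and 28.2 ± 2.11, and for complex V, at 2.57 ± 0.0768 and 3.22 ± 0.29 (SD, n = 4 each). In each of these 4 complexes all shSmurf1 libraries lay above all shControl libraries.

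All 13 mitochondrial genes rose in shSmurf1 by the edgeR test, 13 of 13 against 10.3% of all genes called higher. Their log2 fold changes ran from 0.19 for MT-ND1 to 0.68 for MT-ATP8, with a median of 0.39 against 0.01 over all genes tested. The groups did not overlap for 11 of the 13, against 10.6% of all genes with all shSmurf1 libraries higher, the exceptions being MT-ND1 and MT-ND3. shSmurf1 replicate 3 was the highest of the 8 libraries for 10 of the 13 genes and the second highest for the other 3. Without it all 13 were still called higher, against 16.4% of the genes tested, with a median of 0.33 and a range of 0.10 to 0.71.

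**Figure D2:**
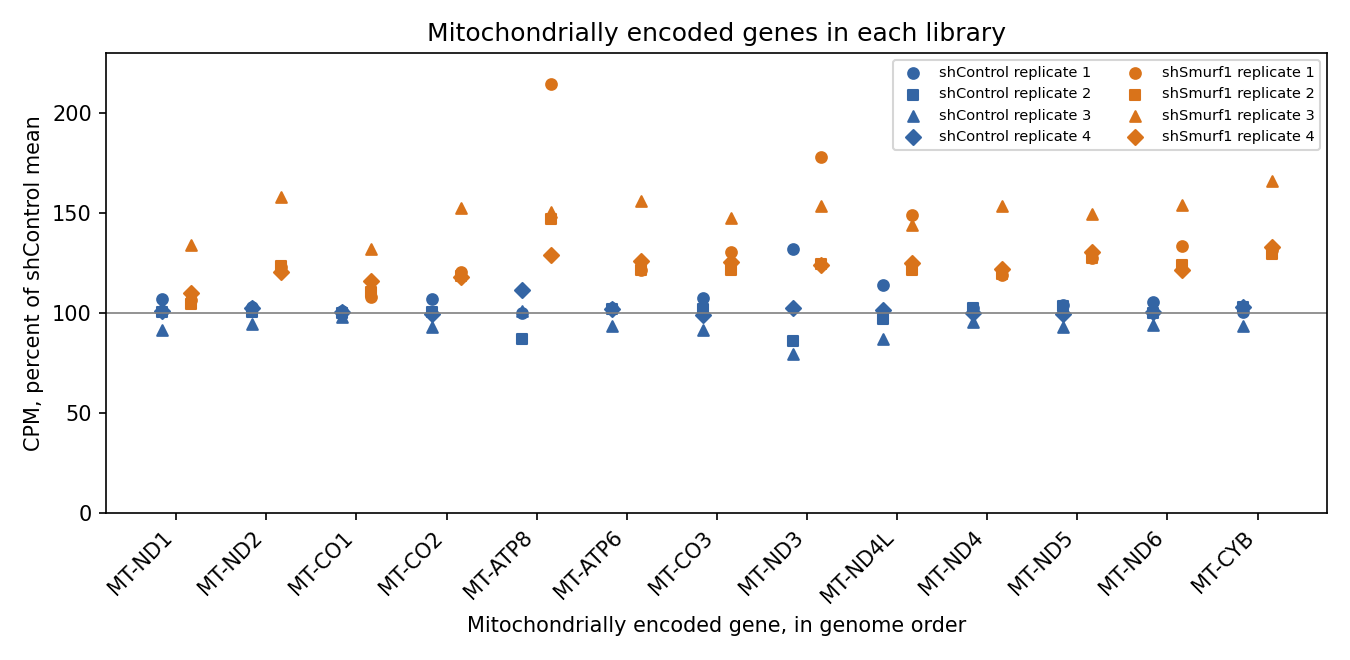
CPM of each of the 13 mitochondrial genes, in genome order, in each library as a percent of the shControl mean (y axis from 0), with shControl in blue, shSmurf1 in orange and a symbol for each replicate number. shSmurf1 replicate 3 (triangle) is the highest point for 10 genes, and the shSmurf1 means stand at 113.7% (MT-ND1) to 160.3% (MT-ATP8) of the shControl means.

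Complex I, the NADH dehydrogenase that feeds electrons into the chain, takes 7 subunits from the mitochondrial genome, and all 7 rose. MT-ND4, a proton-pumping membrane subunit, stood at 5702, 5702, 5316 and 5569 CPM in shControl and at 6629, 6671, 8563 and 6791 CPM in shSmurf1, a log2 fold change of 0.36 (SE 0.063, adjusted p = 0.000304, edgeR with Benjamini-Hochberg adjustment). MT-ND5, another pumping subunit, stood at 1884, 1872, 1685 and 1799 CPM against 2306, 2311, 2710 and 2364 CPM, a log2 fold change of 0.42 (SE 0.053, adjusted p = 9.8e-06, edgeR). In both genes every shSmurf1 library was above every shControl library and replicate 3 was the highest. MT-ND2 rose by 0.39 (SE 0.067) and MT-ND4L by 0.43 (SE 0.073) on the log2 scale, the latter with an open reading frame that overlaps that of MT-ND4.

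MT-ND6 is the only protein-coding gene of the opposite, light strand. It stood at 607, 574, 539 and 579 CPM in shControl and at 767, 712, 884 and 698 CPM in shSmurf1, a log2 fold change of 0.41 (SE 0.063, adjusted p = 6.92e-05, edgeR with Benjamini-Hochberg adjustment). The groups did not overlap, and the value lay within the range of the 12 heavy-strand genes. No strand-marking step is described for these libraries, so heavy-strand RNA antisense to MT-ND6 would be counted with it.

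The other 2 complex I genes had the weakest separation. MT-ND1 stood at 1534, 1443, 1311 and 1445 CPM in shControl and at 1526, 1497, 1919 and 1575 CPM in shSmurf1, a log2 fold change of 0.19 (SE 0.066, adjusted p = 0.0498, edgeR with Benjamini-Hochberg adjustment). Of its 4 shSmurf1 libraries 2 lay inside the shControl range, and the call was lost under 9 of 20 other settings, with adjusted p up to 0.17, among them leaving out shControl replicate 2, 3 or 4 or shSmurf1 replicate 4. MT-ND3 stood at 390, 254, 234 and 303 CPM against 526, 368, 454 and 366 CPM, a log2 fold change of 0.54 (SE 0.12, adjusted p = 0.00377, edgeR). Its groups overlapped through shControl replicate 1, and DESeq2 gave an adjusted p of 0.0539.

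MT-CYB encodes cytochrome b, the only mitochondrially encoded subunit of complex III, the cytochrome c reductase. It stood at 2847, 2926, 2649 and 2927 CPM in shControl and at 3737, 3673, 4712 and 3772 CPM in shSmurf1. It rose by 0.49 on the log2 scale (SE 0.064, adjusted p = 1.48e-05, edgeR with Benjamini-Hochberg adjustment), and the groups did not overlap with or without replicate 3.

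Complex IV, cytochrome c oxidase, has its catalytic core encoded by 3 mitochondrial genes, and all 3 rose. MT-CO1, which holds the oxygen-reducing site, stood at 10697, 10613, 10401 and 10648 CPM in shControl and at 11425, 11687, 13972 and 12282 CPM in shSmurf1, a log2 fold change of 0.22 (SE 0.051, adjusted p = 0.00332, edgeR with Benjamini-Hochberg adjustment). MT-CO2, which takes electrons from cytochrome c, stood at 3628, 3408, 3161 and 3386 CPM against 4093, 4017, 5183 and 4011 CPM, a log2 fold change of 0.35 (SE 0.067). MT-CO3 rose by 0.39 (SE 0.057). None of the 3 overlapped between the groups, and MT-CO1 had the smallest fold change of the mitochondrial genes after MT-ND1.

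Of the 2 mitochondrial genes of complex V, the ATP synthase, MT-ATP6 encodes the subunit of the proton channel. It stood at 3883, 3861, 3533 and 3869 CPM in shControl and at 4599, 4593, 5911 and 4772 CPM in shSmurf1, a log2 fold change of 0.39 (SE 0.064, adjusted p = 0.000158, edgeR with Benjamini-Hochberg adjustment). MT-ATP8, a small subunit of the stator side, stood at 9.41, 8.21, 9.51 and 10.5 CPM against 20.2, 13.8, 14.2 and 12.1 CPM, a log2 fold change of 0.68 (SE 0.14, adjusted p = 0.0014, edgeR). Neither gene overlapped between the groups. The 3′ end of MT-ATP8 lies inside MT-ATP6. Its sequence is shown for that overlap, from the GENCODE 29 transcripts on GRCh38, mitochondrial chromosome positions 8366 to 8572, plus strand, 207 bases, with the 46 bases shared with MT-ATP6 in capitals and the other 161 in lower case.
MT-ATP8: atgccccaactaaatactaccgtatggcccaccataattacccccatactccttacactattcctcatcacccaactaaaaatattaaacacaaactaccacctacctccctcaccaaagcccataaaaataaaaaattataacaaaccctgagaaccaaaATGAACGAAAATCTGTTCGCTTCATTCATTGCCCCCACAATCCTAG
How reads over the shared bases were assigned is not given in the sources used here.

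Levels between genes were compared per length, as RPKM (CPM divided by the exon length in kilobases). In shControl the mitochondrial genes ran, from the highest, MT-CO1 at 6867 ± 84.7, MT-ATP6 at 5560 ± 249, MT-CO2 at 4965 ± 279, MT-ND4 at 4044 ± 132 and MT-CO3 at 3956 ± 267 RPKM (SD, n = 4). The neighbours MT-ND4 and MT-CO3 differed by less than their spread. Below them came MT-CYB at 2487 ± 115, MT-ND2 at 1704 ± 66.7, MT-ND1 at 1499 ± 95.8 and MT-ND4L at 1475 ± 164, of which MT-ND1 and MT-ND4L were not separated by their spread. MT-ND6 at 1094 ± 52.9, MT-ND5 at 998.9 ± 50.5 and MT-ND3 at 853.4 ± 202 RPKM were the next lowest, MT-ND3 being within its spread of MT-ND5, and MT-ATP8 was far below at 45.5 ± 4.56 RPKM. MT-ATP8 has 207 bases, 22.2% of them shared with MT-ATP6, and its level depends on how reads over both genes were assigned. The part that read assignment has in its low value was not tested. The median mitochondrial gene was at 1704 RPKM and the median tested nuclear member at 20.8 RPKM. The nuclear values are understated where rare long isoforms lengthen the exon union. In 32 nuclear members over 10% of exon bases are shared with another gene, and how reads there were assigned is not given. Among them NDUFV2, NDUFA7 and NDUFA13 stood at only 1.08, 0.87 and 2.6 CPM in shControl. The part of this sharing in their low values was not tested.

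**Figure D3:**
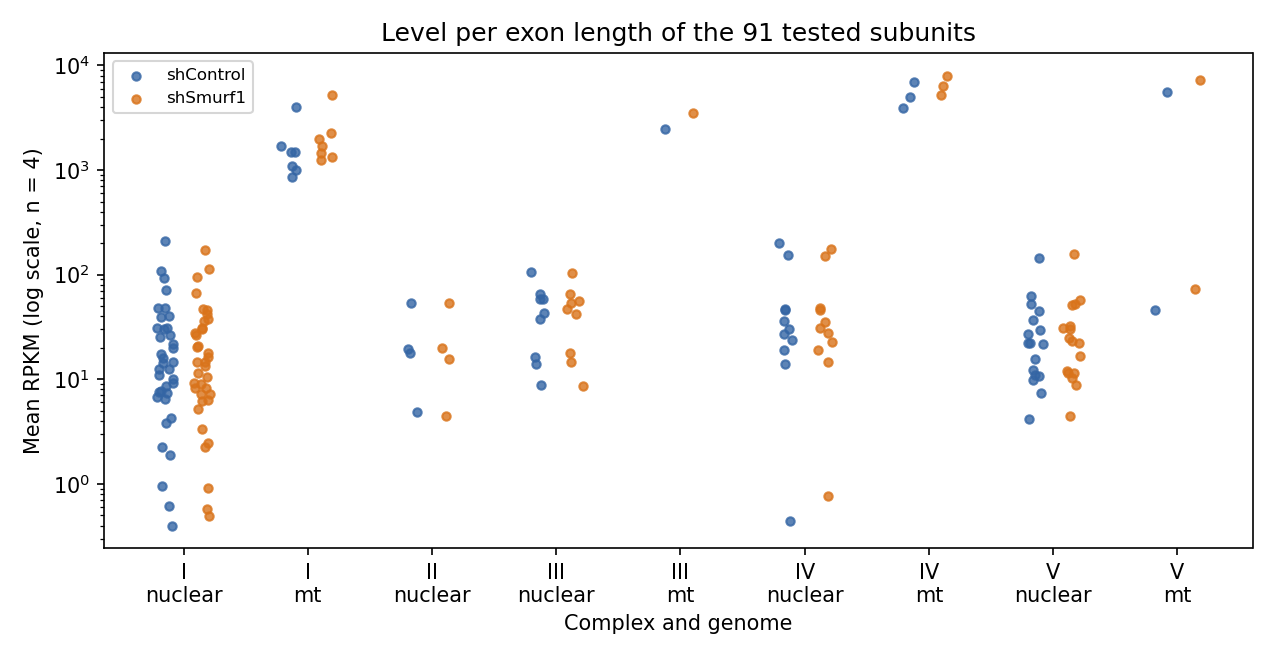
Mean level per length (RPKM, log axis, n = 4) in shControl (blue) and shSmurf1 (orange) of the 13 mitochondrial genes and the tested nuclear members, grouped by complex. In shControl the mitochondrial genes lie between 45.5 (MT-ATP8) and 6867 RPKM (MT-CO1), and the nuclear members have a median of 20.8 RPKM. The MT-ATP8 level depends on how reads over bases shared with MT-ATP6 were assigned.

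Of the 80 nuclear members, 78 passed the filter on low counts. The other 2 were ATP5MF-PTCD1, a readthrough gene with 23 counts over the 8 libraries, and ATP5MGL with 3. Of the 78 tested, 3 rose, 5 fell and 70 were not called, so 10.3% were called against 22.5% of all genes. Separately, 3 of 78 higher stood against 10.3% and 5 of 78 lower against 12.2% of all genes. The median log2 fold change was 0.02, and 47 of the 78 lay within 0.1 of 0 and 74 within 0.3. Groups did not overlap for 7 members with shSmurf1 higher and 3 with shSmurf1 lower, against 10.6% and 13.1% of all genes. Without shSmurf1 replicate 3 these counts were 9 and 9. The share of all genes was not computed for that comparison, in which fewer libraries separate more easily. Of the 78, 7 had a log2 fold change above the lowest mitochondrial value and 2 above the mitochondrial median. Of the latter, COX7A1, a muscle isoform of a complex IV subunit, had the largest fold change at 0.75 (SE 0.44) but was barely detected, at 0.45 CPM in shControl and 0.77 CPM in shSmurf1, and was not called.

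**Figure D4:**
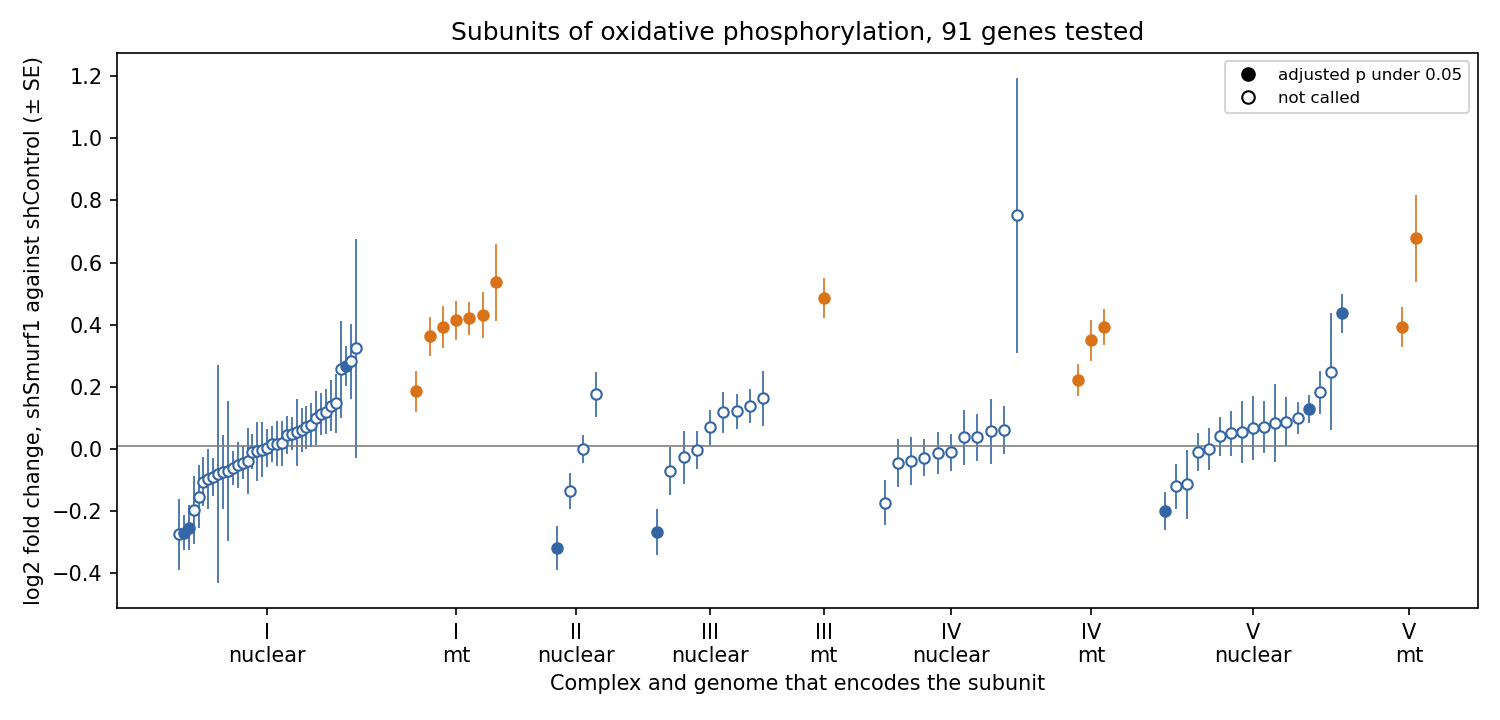
Log2 fold change of shSmurf1 against shControl (y axis; bars are SE) for every tested member, by complex and by genome, with called members filled, mitochondrial genes in orange and a line at the median of all genes. The 13 mitochondrial genes lie between 0.19 and 0.68, and the nuclear members centre on a median of 0.02.

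By complex, 1 nuclear member rose and 2 fell of 37 in complex I (median log2 fold change 0.00), 0 rose and 1 fell of 4 in complex II (median -0.07), and 0 rose and 1 fell of 9 in complex III (median 0.07). In complex IV 0 of 11 were called by edgeR, DESeq2 or limma-voom (median -0.01, 1 of 11 at an unadjusted p under 0.05 by edgeR), and in complex V 2 rose and 1 fell of 17 tested (median 0.07). Without shSmurf1 replicate 3, 5 nuclear members rose and 8 fell, against 16.4% and 17.3% of the genes tested. After each library's trend on GC content was taken out, 7 rose and 8 fell, against 13.2% and 15% of all genes. In all 3 fits fewer nuclear members than the background share were called in either direction.

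In the nuclear members of complex I, NDUFA2, an accessory subunit (ENSG00000131495, GRCh38 chr5:140638740-140647785, minus strand), was the one that rose. It stood at 41.7, 43.7, 47.2 and 46.1 CPM in shControl and at 51.2, 52.2, 55.8 and 55.8 CPM in shSmurf1, with no overlap, a log2 fold change of 0.27 (SE 0.064, adjusted p = 0.00486, edgeR with Benjamini-Hochberg adjustment). Set against the median of the 20 tested genes on each side of it along the chromosome, the difference was 0.10. NDUFS5, a small accessory subunit (ENSG00000168653, chr1:39026318-39034636), fell, from 124, 109, 114 and 110 CPM to 97.7, 88.6, 95.2 and 97.4 CPM, with no overlap. The log2 fold change stood at -0.27 (SE 0.056, adjusted p = 0.00154, edgeR), and -0.11 relative to its neighbours. NDUFB2, a membrane-arm accessory subunit (ENSG00000090266, chr7:140690777-140722790), fell from 59.4, 52.5, 52.7 and 58.9 CPM to 48.9, 47.9, 40.9 and 49.7 CPM, a log2 fold change of -0.25 (SE 0.072, adjusted p = 0.0149, edgeR). Its neighbours had a median that was lower still, so that relative to them it stood at 0.07, the opposite sign, and 35.9% of its exon bases are shared with other genes, BRAF among them. The call of NDUFB2 was lost without shControl replicate 1 or 4. The highest uncalled member per length was NDUFB7, another accessory subunit, at 64.8, 54.8, 52.8 and 58.2 CPM in shControl and 64.5, 56.1, 61.5 and 59.8 CPM in shSmurf1. Its overlapping groups had means of 109 ± 9.9 RPKM in shControl and 114 ± 6.57 RPKM in shSmurf1 (SD, n = 4).

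Complex II, succinate dehydrogenase, links the citric acid cycle to the chain. SDHD, a membrane anchor of the complex (ENSG00000204370, chr11:112086773-112120013), fell, from 49.3, 56.2, 57.4 and 56.9 CPM to 40.4, 45.1, 48.3 and 42.2 CPM. All shSmurf1 libraries lay below all shControl libraries, with a log2 fold change of -0.32 (SE 0.072, adjusted p = 0.00275, edgeR with Benjamini-Hochberg adjustment) and -0.30 relative to its neighbours. SDHA, the flavoprotein subunit, was not called, at 460.4, 450, 439 and 456 CPM in shControl and 463, 429, 443 and 468 CPM in shSmurf1 (log2 fold change -0.00, SE 0.045). SDHB, the iron-sulfur subunit, had a log2 fold change of 0.18 (SE 0.071, adjusted p = 0.0873, edgeR). SDHB was called higher under 3 of 20 other settings, each with the GC trend removed.

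In complex III, UQCRH, the hinge protein (ENSG00000173660, chr1:46303631-46316776), fell, from 105, 82.5, 87.9 and 90.2 CPM to 79.1, 72.0, 82.8 and 69.8 CPM. The groups overlapped through shSmurf1 replicate 3, and its log2 fold change came to -0.27 (SE 0.073, adjusted p = 0.0111, edgeR with Benjamini-Hochberg adjustment), with -0.05 relative to its neighbours. The call of UQCRH was lost without shControl replicate 1 (adjusted p = 0.0605, edgeR). CYC1, cytochrome c1, was the highest uncalled member per length, at 217, 199, 195 and 218 CPM against 223, 205, 182 and 216 CPM. Its groups overlapped, with means of 105 ± 6.04 and 104.6 ± 8.96 RPKM (SD, n = 4 each). CYC1 was called under 3 of 20 other settings, each with the GC trend removed, and its log2 fold change went down to -0.15. UQCRC1, a core subunit, had groups that did not overlap but an adjusted p of 0.0807 (log2 fold change 0.14, SE 0.055, edgeR). UQCRC1 was called higher under 2 of 20 other settings, library totals alone and without shSmurf1 replicate 3. Of the 11 nuclear subunits of complex IV, the highest per length was COX8A, a small membrane subunit, at 104, 89.9, 100.6 and 112 CPM in shControl and 99.0, 87.2, 79.1 and 94.9 CPM in shSmurf1. Its groups overlapped, with means of 200.4 ± 18.1 and 178 ± 17.3 RPKM (SD, n = 4 each) and an adjusted p of 0.0961 (log2 fold change -0.17, edgeR). COX8A was called lower under 6 of 20 other settings, namely no filter on low counts, the GC or the length trend removed, the GC trend removed with a replicate block or without shSmurf1 replicate 3, and shControl replicate 2 left out. COX6B1 followed at 155 ± 9.15 and 152 ± 11.3 RPKM and was called lower under 1, the GC trend removed without shSmurf1 replicate 3.

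Complex V had the largest log2 fold change among the 8 called nuclear members. ATP5MC1, a gene for subunit c of the membrane ring that turns as protons pass (ENSG00000159199, chr17:48892765-48895871), stood at 60.9, 58.1, 56.8 and 57.5 CPM in shControl and at 86.3, 74.7, 73.6 and 81.2 CPM in shSmurf1. Every shSmurf1 library was well above every shControl library, and its log2 fold change came to 0.44 (SE 0.062, adjusted p = 3.48e-05, edgeR with Benjamini-Hochberg adjustment) and 0.33 relative to its neighbours. ATP5F1B, the catalytic beta subunit (ENSG00000110955, chr12:56638175-56646068), stood at 346, 336, 326 and 340 CPM against 368, 355, 379 and 371 CPM, with no overlap. The log2 fold change stood at 0.13 (SE 0.045, adjusted p = 0.0452, edgeR), and the call was lost under 9 of 20 other settings, among them leaving out any 1 shControl library, shSmurf1 replicate 1 or shSmurf1 replicate 4. ATP5PB, the peripheral stalk subunit b (ENSG00000116459, chr1:111448864-111462773), stood at 130, 127, 115 and 128 CPM against 104, 101, 120 and 108 CPM, overlapping through replicate 3 of both groups. The log2 fold change stood at -0.20 (SE 0.060, adjusted p = 0.0206, edgeR) and -0.00 relative to its neighbours, and the call was lost without shControl replicate 1, 2 or 4, or without shSmurf1 replicate 1 or 2. The highest uncalled member per length was ATP5MD, a small membrane subunit, at 66.3, 61.1, 48.2 and 54.96 CPM against 54.97, 41.9, 67.1 and 49.0 CPM. Its groups overlapped, with means of 62.4 ± 8.49 and 57.6 ± 11.5 RPKM (SD, n = 4 each). ATP5MD was called lower under 1 of 20 other settings, without shSmurf1 replicate 3.

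**Figure D5:**
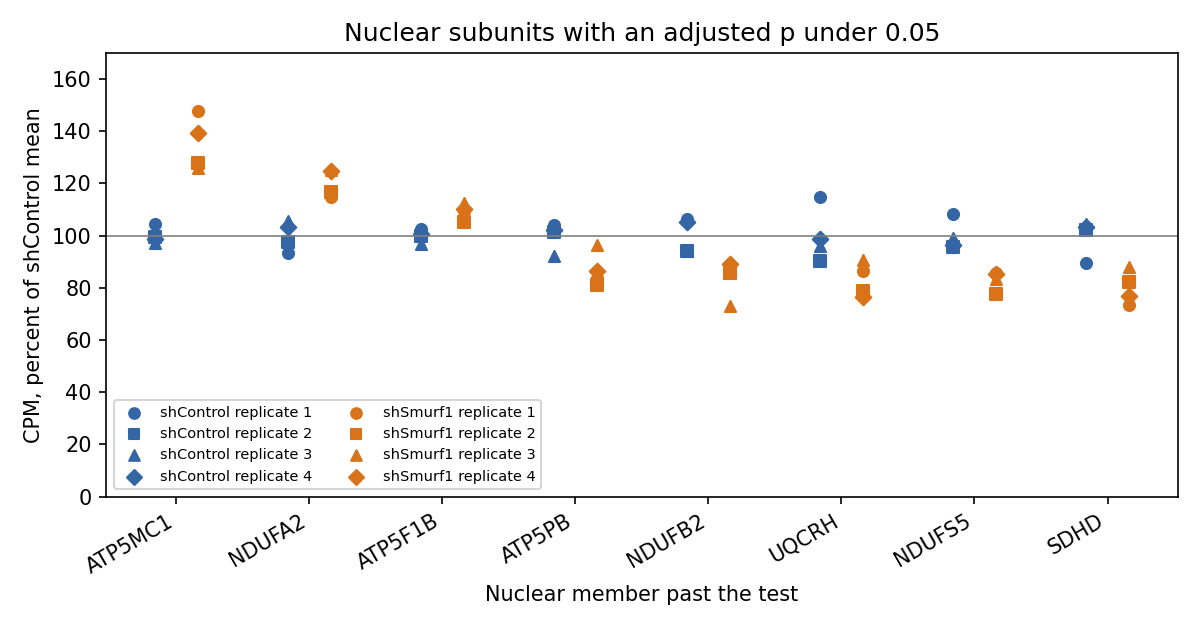
CPM of the 8 nuclear members called, as a percent of the shControl mean (y axis from 0), in each of the 4 shControl (blue) and 4 shSmurf1 (orange) libraries, with a symbol for each replicate number. ATP5MC1, NDUFA2 and ATP5F1B rose and SDHD, NDUFS5, UQCRH, NDUFB2 and ATP5PB fell; the groups overlap for UQCRH and ATP5PB.

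Of the 8 called nuclear members, ATP5MC1, NDUFA2, SDHD and NDUFS5 kept their call under all 20 other settings. The 200 bases before the RefSeq start site are printed for ATP5MC1, NDUFA2 and SDHD, the called members with the largest rise, the second largest rise and the largest fall, read on the gene's strand from GRCh38.p14. Capitals mark the motifs found. Other starts, of GENCODE 29 models, lie inside these windows. Some of the marked matches, both of those in NDUFA2 and the ETS match in SDHD included, therefore fall within those gene models and not before their start.
ATP5MC1, chr17:48892587-48892786, plus strand: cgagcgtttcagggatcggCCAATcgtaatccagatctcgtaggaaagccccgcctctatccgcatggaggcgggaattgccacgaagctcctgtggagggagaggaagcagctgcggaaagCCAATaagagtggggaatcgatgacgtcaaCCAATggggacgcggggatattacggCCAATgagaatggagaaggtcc
NDUFA2, chr5:140647631-140647830, minus strand: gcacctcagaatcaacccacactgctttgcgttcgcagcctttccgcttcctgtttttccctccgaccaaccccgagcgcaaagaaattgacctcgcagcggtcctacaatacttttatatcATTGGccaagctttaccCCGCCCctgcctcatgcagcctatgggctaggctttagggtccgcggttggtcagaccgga
SDHD, chr11:112086673-112086872, plus strand: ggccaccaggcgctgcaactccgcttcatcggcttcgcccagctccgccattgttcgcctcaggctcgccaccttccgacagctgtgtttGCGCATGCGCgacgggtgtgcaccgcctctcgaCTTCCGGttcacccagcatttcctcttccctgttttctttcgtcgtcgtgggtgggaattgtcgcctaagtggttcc
ATP5MC1 held the letters CCAAT, the core bound by NF-Y, 4 times, at 181, 78, 48 and 22 bases before the start. NDUFA2 held it once on the other strand (ATTGG) at 78 bases, and CCGCCC, the other strand of the SP1 box GGGCGG, at 61 bases. SDHD held GCGCATGC, the core bound by nuclear respiratory factor 1 (NRF1), at 110 and 108 bases in overlapping copies on both strands, and CTTCCGG, the other strand of the ETS core CCGGAAG, at 77 bases.

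Promoter windows of 300 bases, 250 before and 50 after the start, were found for 61 of the 80 nuclear members, 73 windows in all, and searched on both strands. The NRF1 core GCGCATGC was in 20.5% of member windows, against 3.05% of all 35116 windows and 4.6% of the 15193 windows of tested protein-coding genes. The ETS core CCGGAAG, read by GABPA among others, was in 28.8% against 10.3% and 16.3%, and the YY1 core AAGATGGC in 17.8% against 2.89% and 4.58%. CCAAT was in 31.5% against 34.6% and 34.4%, and GGGCGG in 61.6% against 45% and 65.9%. By gene, 14 members had the NRF1 letters, of which SDHD was called, and 20 had the ETS letters, of which SDHD and UQCRH were called. The YY1 letters were in 12, of which ATP5PB was called. CCAAT was in 20, of which ATP5MC1, NDUFA2 and UQCRH were called, and GGGCGG in 39, of which ATP5PB, NDUFA2 and NDUFB2 were called. Calls stood at 10.3% of the tested nuclear members and 22.5% of all genes. A match is a description of letters and not a bound site.

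Genes that act on these subunits were counted from lists. Nuclear regulators of mitochondrial genes include NRF1, GABPA and the coactivators of the PGC-1 family. Of 13 tested, 1 rose and 3 fell (median log2 fold change -0.10), beside 10.3% higher and 12.2% lower of all genes. YY1 rose by 0.19 (SE 0.052). MYC fell by 0.32 (SE 0.056), PPARD fell by 0.21 (SE 0.059) and the coactivator PPRC1 fell by 0.15 (SE 0.053) on the log2 scale. PPRC1 lost its call under 10 of 20 other settings (adjusted p up to 0.138), among them without any 1 shControl library or without shSmurf1 replicate 2 or 4, and PPARD lost it without shControl replicate 4. NRF1 was not called at -0.03, nor GABPA at -0.15 nor ESRRA at -0.11, and PPARGC1A and ESRRG had 0 counts in every library. PPARGC1B, also of the PGC-1 family, had the highest log2 fold change of the list, 0.41, but was not called. Under the 20 other settings it ran from 0.21 to 0.86 and stayed uncalled (lowest adjusted p = 0.0521 over edgeR, DESeq2 and limma-voom fits). GABPA was called lower under 1 of 20 other settings, without shSmurf1 replicate 3 (adjusted p = 0.00394, edgeR). ESRRA was called lower under 2, the GC trend removed with or without a replicate block.

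Of 43 genes for transcription, replication, processing and translation of mitochondrial DNA and RNA, 3 rose and 4 fell (median -0.01), so that 16.3% were called against 22.5% of all genes. Those that rose were TSFM, a mitochondrial translation elongation factor, at 0.41 (SE 0.099), TBRG4, an RNA-binding protein, at 0.33 (SE 0.051), and POLG, the mitochondrial DNA polymerase, at 0.24 (SE 0.070). MTERF2 fell by 0.31, the single-stranded DNA-binding protein SSBP1 fell by 0.24, the RNA granule protein GRSF1 fell by 0.23 and the elongation factor GFM1 fell by 0.21 on the log2 scale. The neighbours of SSBP1 were lower still, and relative to them it stood at 0.06. TSFM, TBRG4 and GRSF1 kept their call under all 20 other settings. MTERF2 lost it under 13 of them, DESeq2 included, and GFM1 under 9, both of them without any 1 library other than shControl replicate 4 and shSmurf1 replicate 3. POLG lost it under 5, without shControl replicate 1 or 4, or without shSmurf1 replicate 1, 2 or 4, and SSBP1 under 4, the same libraries other than shSmurf1 replicate 1. TFAM, which packages and transcribes mitochondrial DNA, stood at 84.0 ± 3.26 CPM in shControl and 73.3 ± 10.3 CPM in shSmurf1 (log2 fold change -0.20, adjusted p = 0.0739, edgeR with Benjamini-Hochberg adjustment). The mitochondrial RNA polymerase POLRMT was not called at 0.14, nor was LRPPRC, which stabilises mitochondrial mRNA, at -0.01. TFAM, POLRMT and LRPPRC were named after their values were seen.

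Of 51 tested assembly factors, 6 rose and 2 fell (median 0.09), so that 15.7% were called against 22.5% of all genes. COA1, which acts in complex IV and complex I assembly, rose from 97.7 to 123 CPM, a log2 fold change of 0.34 (SE 0.052, adjusted p = 8.9e-05, edgeR with Benjamini-Hochberg adjustment). NDUFAF8, for complex I, rose by 0.41. Of factors for complex IV, PET100 rose by 0.49, COX16 by 0.47, COA3 by 0.26 and COA4 by 0.26. The F1 assembly factor ATPAF1 fell by 0.31 and the complex III factor LYRM7 fell by 0.22 on the log2 scale. The groups did not overlap for COA1, COA4 and ATPAF1 and overlapped for the other 5. COA1, NDUFAF8 and ATPAF1 kept their call under all 20 other settings. LYRM7 lost it under 14 (adjusted p up to 0.16), among them without any 1 library other than shSmurf1 replicate 3. PET100 lost it under 8, among them without any 1 library other than shControl replicate 1 and shSmurf1 replicate 2. COX16 lost it under 6, with the length trend removed or without shControl replicate 1, 3 or 4, or without shSmurf1 replicate 2 or 3. COA3 lost it under 5, without shControl replicate 2 or 3 and in each fit with the GC trend removed, where its log2 fold change went down to 0.10. COA4 lost it under 3, without shControl replicate 1 or 4 or shSmurf1 replicate 1.

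Among relatives of the subunits outside the set, 2 rose and 1 fell of 9 tested, 33.3% called against 22.5% of all genes. ATP5IF1, the inhibitor of ATP hydrolysis by complex V, rose by 0.35 (SE 0.064), HIGD2A rose by 0.23 (SE 0.062) and the supercomplex factor COX7A2L fell by 0.22 (SE 0.064), a call lost without shControl replicate 2 or 4, or without shSmurf1 replicate 2 or 4. Of 22 genes for mitochondrial membranes, import and matrix proteins, 1 rose and 3 fell (median -0.03), 18.2% called against 22.5% of all genes. The import receptor TOMM20 rose by 0.32 (SE 0.063). CHCHD3 of the cristae junction fell by 0.39 (SE 0.059), the ADP/ATP carrier SLC25A6 fell by 0.18 (SE 0.052) and the chaperonin HSPD1 fell by 0.17 (SE 0.049). The call was lost without shControl replicate 1 for both SLC25A6 and HSPD1, without shControl replicate 4 for SLC25A6 and without shSmurf1 replicate 2 for HSPD1. The carrier SLC25A5 and the prohibitin PHB2, the highest per length of those not called, had log2 fold changes of -0.03 and 0.01.

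Other RNA from the mitochondrial genome moved with its 13 protein-coding genes. The 2 mitochondrial ribosomal RNAs held 0.755%, 0.683%, 0.643% and 0.718% of counts in shControl and 0.901%, 0.789%, 1.083% and 0.863% in shSmurf1, with no overlap. MT-RNR2 rose from 6498 ± 449 to 8247 ± 1190 CPM (SD, n = 4 each), a log2 fold change of 0.34 (SE 0.073, adjusted p = 0.00169, edgeR with Benjamini-Hochberg adjustment). MT-RNR1 rose from 553 ± 83.7 to 781 ± 112 CPM, a log2 fold change of 0.50 (SE 0.095, adjusted p = 0.000693, edgeR), with overlapping groups. Of 394 nuclear copies of mitochondrial genes listed, 3 were tested. MTATP6P1 at 0.38 and MTND2P28 at 0.36 were called higher, with overlapping groups, beside 10.3% of all genes called higher. Both lost the call with DESeq2 and without shControl replicate 2 or 3 or shSmurf1 replicate 1, and MTATP6P1 also without shControl replicate 4 (adjusted p up to 0.152 for MTATP6P1 and 0.121 for MTND2P28). Reads cannot always be told apart between such copies and the mitochondrial genes. Of 10 histone genes, whose main transcripts lack poly(A), HIST1H1C alone was tested and was not called. The part that poly(A) capture and RNA quality have in the mitochondrial share was not tested. The median GC content was 44.3% for the mitochondrial genes, 47.9% for the nuclear members and 48.4% for all genes tested, and after each library's GC trend was taken out all 13 mitochondrial genes were called higher, with a median of 0.43.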

How the data were processed

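Read counts per gene were deposited by the authors as raw whole numbers for 8 poly(A)-selected libraries. HISAT2 2.0.5, featureCounts 1.5.0-p3, fastp and CASAVA are named in the submitters' processing notes. No genome build, annotation or strand setting is given in the sources used here. All 58735 identifiers were found in GENCODE 29 on GRCh38, which gave symbols, coordinates and exon lengths. GC content was that of each gene's longest transcript (15639 of 15647 tested genes).

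Genes were kept by filterByExpr (minimum count 10), scaled by TMM and tested with edgeR 4.0.16 in R 4.3.3 (quasi-likelihood F test, two-sided, shSmurf1 against shControl, no covariate). P-values were adjusted by Benjamini-Hochberg over all 15647 genes, and genes were called at an adjusted p under 0.05. The SE is the log2 fold change over the root of F. No p-value was computed for a group of members. The edgeR test was also tested on simulated counts. Levels per length used the exon union. Promoters came from RefSeq on GRCh38.p14.

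Members were taken by gene symbol and not by their values, but the symbol rule and the other lists were set with earlier results of these data known. Values in every library are given for members called and for the highest uncalled member of a complex; from other lists, up to 6 called genes with the largest change and up to 2 high uncalled genes were named, and any other gene was chosen after its values were seen. Other settings were DESeq2 1.42.0 and its size factors, limma-voom (limma 3.58.1), library totals alone, scaling without mitochondrial genes, no filter, a replicate block, a filter at 1 CPM in 4 libraries, removal of GC or length trends (lowess, span 0.3) and leaving out each library.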

Additional observations from a re-analysis of the deposited data

Results flagged for a closer look

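In 50 groups of 4 libraries, 9 held a library far from the other 3, and chance alone flags about 1 in 20. Of these, 7 were shSmurf1 replicate 3. Its mitochondrial share was 5.239% against 4.268% to 4.328% in the other shSmurf1 libraries. It was also far above them for MT-ND2 at 2802 CPM, MT-ND4 at 8563 CPM, MT-ND5 at 2710 CPM, MT-CYB at 4712 CPM, MT-CO2 at 5183 CPM and MT-ATP6 at 5911 CPM. The measures are not independent, since the genes share transcripts and make up the share. In shControl, replicate 3 was low for MT-ATP6, at 3533 CPM against 3861 CPM or more, and replicate 1 was low for SDHD, at 49.25 CPM against 56.23 CPM or more. Without that library SDHD was still called lower.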

How the results depend on the processing

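Leaving out 1 library at a time, all genes called higher numbered 1216 to 2601 and all genes called lower 1547 to 2747, the highest counts being those without shSmurf1 replicate 3. Nuclear members called higher numbered 5 with library totals alone, 7 with the GC trend removed, 8 with it removed and without shSmurf1 replicate 3, 8 in the replicate block with the GC trend removed, and 2 to 5 leaving out each library. Those called lower numbered 8, 11 and 8 under the last 3 of these settings, and 2 to 8 leaving out each library (2 without shControl replicate 1, 3 without shControl replicate 4, 8 without shSmurf1 replicate 3). All genes called higher were 11.9% with library totals, 13.2%, 13% and 12.7% under the 3 settings with GC removal, and 7.64% to 16.4% leaving out each library; those called lower were 15%, 15.2% and 14.7%, and 9.72% to 17.3%. The 2 settings that join GC removal with another choice were added after seeing the data. The ratio of mitochondrial to nuclear levels, as medians over members, was 136.7% of control in place of 125.3%. Relative to neighbouring genes NDUFB2 reversed to 0.0740 and SSBP1 to 0.0597. The replicate block gave 1418 genes higher and 1774 lower, 2 and 5 nuclear members and 12 mitochondrial genes. Whether equal replicate numbers mark paired libraries is not stated in the labels. Same-numbered libraries correlated in their deviations at 0.05, -0.01, -0.18 and 0.06, which cannot decide it with 4 libraries in each group. The mitochondrial median ran from 0.33 to 0.43 over all settings. Of the 21 called members 15 kept the call in all 20 settings, and MT-ND1, MT-ND3, ATP5F1B, ATP5PB, NDUFB2 and UQCRH lost it in at least 1. Of 70 uncalled members 52 stayed uncalled in every setting that tested them, which was 19 settings for NDUFA7 and for COX7A1. The cause was not tested.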
